A study of Mus musculus with 4 samples.

Results

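The genes described here are 36 genes known for their expression in endothelial cells, the cells that line blood and lymph vessels. They were taken by symbol from a deposited table of 39170 genes, and all 36 were found in it, each once. Total RNA was sequenced from sorted pancreatic islet cells. The animals were male MIP-GFP mice on C57BL/6, 6 to 8 weeks old, whose insulin promoter drives green fluorescent protein. Their insulin-positive cells were parted by FACS on Glut2, a glucose transporter that the gene Slc2a2 encodes, into Glut2-high (Glut2H) and Glut2-low (Glut2L) cells. Control mice received vehicle, and the treated mice received streptozotocin (STZ), a toxin that beta cells take up through Glut2, in citrate buffer by intraperitoneal injection at 200 mg/kg and were diabetic 4 days later. Each gate was sorted from control and from STZ mice, which gives 4 groups of 1 library, with 3 mice per treatment. The sources used here do not state whether mice were pooled.

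No spread between replicates exists with 1 library per group, so no difference was tested and each comparison describes the libraries at hand. Levels are FPKM, a fragment count per kilobase of transcript that is scaled to library size. Where 4 levels follow a gene, they are those of the control libraries, Glut2H then Glut2L, and then of the STZ libraries, again Glut2H then Glut2L. The depth behind each level is unknown. A difference is given on the scale of log2(FPKM + 1), which understates it for low genes. A gene was counted as measured in a comparison where it reached 1 FPKM in either library, and as higher or lower where the difference was at least 2-fold on this scale. The Slc2a2 transcript stood at 8.74, 41.0, 10.8 and 33.7 FPKM, which goes against the gate labels. Every direction between gates is therefore a direction between libraries so labelled.

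Islets are densely vascularised, and their capillaries are lined by fenestrated endothelium. Endothelial cells are held together by VE-cadherin, claudin-5 and related junction proteins, and their identity is set by ETS, SoxF and Tal1 transcription factors. They do not make insulin, so a sort for insulin-positive cells is not meant to hold them. In bulk RNA, fewer cells of a type and less RNA per cell cannot be told apart.

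ETS factors such as Erg and Fli1, both among the 36 genes, bind DNA around a GGAA core, and promoters of 4 of the genes are printed to show where such letters stand. The RefSeq promoter table (GRCm38.p6) matched 18 of the 36 genes with 24 windows, each running from 250 bases before to 50 bases after a start. The motif searched was GGAAG on either strand, with overlapping matches counted separately, and its matches are in capitals. Egfl7 and Procr had the highest levels in the Glut2H libraries, the Tie1 window held the most matches of any of the 24, and Esm1, at a level close to that of Eng, held none.
Egfl7, chr2:26580833-26581132, plus strand: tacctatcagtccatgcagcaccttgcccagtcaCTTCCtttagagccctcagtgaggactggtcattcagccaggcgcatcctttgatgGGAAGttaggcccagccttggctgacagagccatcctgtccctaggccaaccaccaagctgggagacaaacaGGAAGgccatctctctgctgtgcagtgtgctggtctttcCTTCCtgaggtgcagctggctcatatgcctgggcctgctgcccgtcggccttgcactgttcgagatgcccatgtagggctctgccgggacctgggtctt
Procr, chr2:155750967-155751266, plus strand: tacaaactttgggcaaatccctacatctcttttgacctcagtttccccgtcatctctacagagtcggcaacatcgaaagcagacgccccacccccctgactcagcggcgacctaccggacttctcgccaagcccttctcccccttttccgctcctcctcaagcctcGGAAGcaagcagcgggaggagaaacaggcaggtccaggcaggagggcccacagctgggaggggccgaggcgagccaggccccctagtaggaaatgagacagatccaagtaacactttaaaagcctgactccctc
Tie1, chr4:118489800-118490099, minus strand: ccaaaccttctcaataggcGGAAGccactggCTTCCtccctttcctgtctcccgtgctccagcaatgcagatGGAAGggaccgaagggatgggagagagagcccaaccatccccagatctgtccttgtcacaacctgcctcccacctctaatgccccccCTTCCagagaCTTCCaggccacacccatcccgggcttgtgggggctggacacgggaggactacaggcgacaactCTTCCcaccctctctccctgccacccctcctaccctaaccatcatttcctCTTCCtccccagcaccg
Esm1, chr13:113209409-113209708, plus strand: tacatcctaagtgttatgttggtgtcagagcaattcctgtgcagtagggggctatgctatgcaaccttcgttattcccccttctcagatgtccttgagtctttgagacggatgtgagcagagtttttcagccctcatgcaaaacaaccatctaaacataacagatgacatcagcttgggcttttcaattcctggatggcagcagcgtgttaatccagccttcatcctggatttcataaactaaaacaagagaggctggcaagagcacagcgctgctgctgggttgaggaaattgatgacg
The printed windows hold 4, 1, 7 and 0 matches. Egfl7 has 3 windows in the table, and those not printed held 3 and 0. Over all 24 windows of the endothelial genes, 17 (70.8%) held a match, beside 71.4% of the 32851 promoter windows of the whole table, so the share of windows with these letters was close to that of any promoter. A SOX core (ACAAT) stood in 33.3% of the windows and in 31% of all promoters, and a KLF core (CACCC) in 62.5% and 57.5%. A FOX core (GTAAACA) stood in 0 of the 24 windows and in 3.65% of all promoters. The letters AGATAA, typical of sites of GATA factors, stood in 8.33% and 11.2%. All motifs were searched on both strands. A match or its absence is a description of letters and says nothing of whether a factor binds.

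In the libraries labelled Glut2H the endothelial genes were plainly present. Of the 36 genes, 30 reached 1 FPKM in the Glut2H control library and 31 in the Glut2H STZ library, against 16 and 14 in the Glut2L control and STZ libraries. Of all 39170 genes, 14425 and 13714 reached it in the Glut2H control and STZ libraries, and 14117 and 14005 in the Glut2L control and STZ libraries. Their summed level was 620 FPKM in the Glut2H control, 99.0 in the Glut2L control, 614 in the Glut2H STZ and 72.3 in the Glut2L STZ library. The 2 Glut2H sums thus lay close together, and both Glut2L sums lay far below them. The sums were carried by a few genes, since the 5 highest held 55.5% of the sum in the Glut2H control library (Procr, Egfl7, Plvap, Eng and Esm1) and 68.2% in the Glut2H STZ library (Procr, Egfl7, Esm1, Eng and Cav1).

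**Figure D1:**
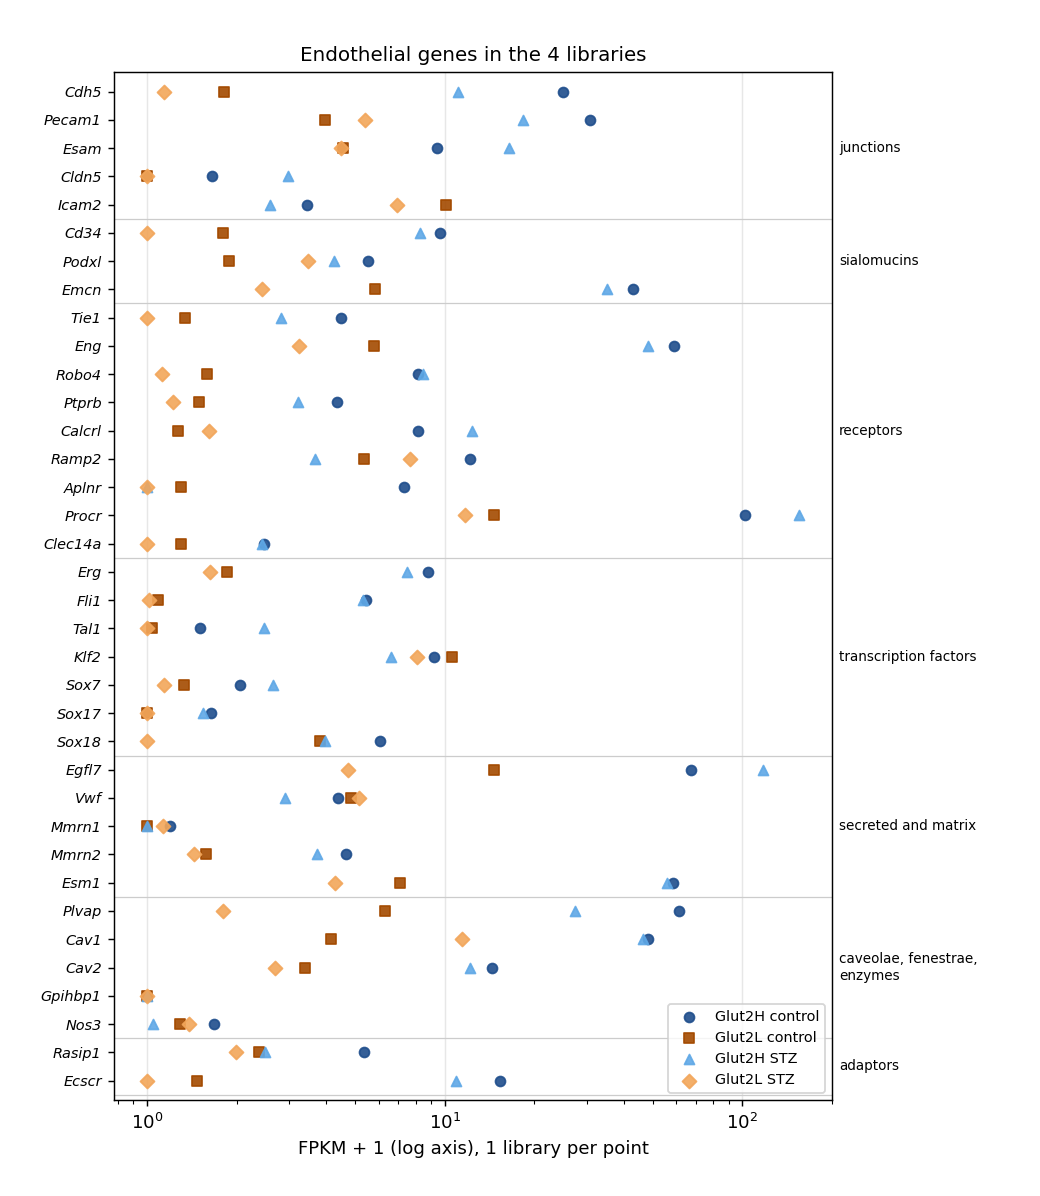
FPKM + 1 of each endothelial gene on a log axis, grouped by role, with 1 point per library: circles and triangles are the Glut2H control and STZ libraries, squares and diamonds the Glut2L control and STZ libraries. For 28 of the 36 genes both Glut2H points lie to the right of both Glut2L points, and Icam2 and Vwf show the opposite order.

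Both Glut2H libraries stood above both Glut2L libraries for 28 of the 36 genes, 27 of them among the 32 that reached 1 FPKM in any library. Over the 17732 genes of the table that reached 1 FPKM in any library, this order was seen in 21%. The opposite order was seen for Icam2 and Vwf, 2 of the 32, beside 32.8% of all such genes. The 6 genes with neither order were Ramp2, Aplnr, Klf2, Mmrn1, Gpihbp1 and Nos3.

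The genes of endothelial junctions and adhesion are common markers of the cell type, but blood or stromal cells also express Pecam1, Esam and Icam2. Cdh5, which encodes VE-cadherin (ENSMUSG00000031871, GRCm38 chromosome 8, 104101625 to 104144511), stood at 24.0, 0.814, 10.1 and 0.142 FPKM. Pecam1, the adhesion molecule CD31, which platelets and leukocytes also carry, stood at 29.9, 2.96, 17.4 and 4.41. Both were thus highest in the Glut2H control library, intermediate in the Glut2H STZ library and lowest in the Glut2L libraries. Esam, an adhesion molecule of tight junctions, stood at 8.44, 3.56, 15.5 and 3.48 and was highest in the Glut2H STZ library. Cldn5, the claudin of tight endothelial barriers, was low, at 0.653 and 1.98 in the Glut2H control and STZ libraries, and was listed at 0 in both Glut2L libraries. Icam2, a ligand of leukocyte integrins (ENSMUSG00000001029, chromosome 11, 106377656 to 106388075), stood at 2.45, 9.12, 1.59 and 5.90, with both Glut2L values above both Glut2H values.

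The sialomucins, heavily glycosylated proteins of the vessel lumen, were low in the Glut2L libraries. Emcn, which encodes endomucin, stood at 42.0, 4.85, 34.1 and 1.44 FPKM. Cd34, shared with blood progenitors, stood at 8.62, 0.806, 7.28 and 0. Podxl, which encodes podocalyxin, stood at 4.51, 0.889, 3.26 and 2.48, so its Glut2L STZ value came near its Glut2H STZ value.

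The receptors held the highest and some of the lowest levels of the set. Procr, the endothelial receptor of protein C (ENSMUSG00000027611, chromosome 2, 155751117 to 155755471), had the highest level of the 36 genes in every library, at 101, 13.7, 155 and 10.7 FPKM. Blood or stromal cells also express Procr, so its level is not endothelial alone. Eng, which encodes the TGF-beta co-receptor endoglin, stood at 58.1, 4.78, 47.2 and 2.25. The exons of Eng overlap those of Fpgs on the opposite strand, which stood at 9.41, 20.5, 16.3 and 3.035. Whether counting used strand is not stated in the sources used here. Calcrl, the receptor of adrenomedullin and CGRP, stood at 7.12, 0.274, 11.3 and 0.613. These receptors were each far higher in both Glut2H libraries than in either Glut2L library. Ramp2, which makes Calcrl an adrenomedullin receptor, did not follow it, at 11.2, 4.36, 2.65 and 6.67. Its exons overlap those of Vps25 on the same strand, which stood at 26.9, 36.6, 19.99 and 38.1, so reads could be shared between both genes. Aplnr, the apelin receptor (ENSMUSG00000044338, chromosome 2, 85136225 to 85139923), stood at 6.33 in the Glut2H control and 0.300 in the Glut2L control library and was listed at 0 in both STZ libraries.

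The other receptors were lower in level. Robo4, which stabilises vessels, stood at 7.16, 0.587, 7.48 and 0.124 FPKM. Tie1, an orphan receptor of the angiopoietin pathway, stood at 3.48, 0.344, 1.83 and 0. Ptprb, the phosphatase VE-PTP, stood at 3.34, 0.498, 2.21 and 0.222. In each the Glut2H values exceeded the Glut2L values. Clec14a, a lectin-like receptor of vessels, stood at 1.48, 0.297, 1.44 and 0.

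Of the transcription factors, Erg and Fli1 are ETS factors that keep endothelial genes active. Erg stood at 7.82, 0.864, 6.46 and 0.632 FPKM. Fli1, which leukocytes also express, stood at 4.44, 0.0883, 4.32 and 0.0193. Both were nearly equal in the Glut2H libraries and below 1 FPKM in the Glut2L libraries. The SoxF genes were low: Sox18 stood at 5.08, 2.82, 2.97 and 0, Sox7 at 1.05, 0.334, 1.65 and 0.138, and Sox17 at 0.644, 0, 0.545 and 0. Tal1, a factor of blood and vessel development, stood at 0.504, 0.0395, 1.48 and 0. Klf2, a factor induced by blood flow and also present in lymphocytes, was spread evenly, at 8.20, 9.57, 5.60 and 7.06.

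Among secreted proteins, Egfl7, a matrix protein of growing vessels (ENSMUSG00000026921, chromosome 2, 26580014 to 26593120), stood at 66.5, 13.7, 116 and 3.73 FPKM. Its exons overlap those of Agpat2 on the opposite strand, which stood at 8.76, 4.29, 12.97 and 2.45, and the sources used here do not state whether counting used strand. Esm1, which encodes endocan and marks endothelial tip cells, stood at 57.7, 6.06, 55.0 and 3.28. Egfl7 was thus highest in the Glut2H STZ library, while Esm1 was nearly equal in the 2 Glut2H libraries. Mmrn2, a matrix protein bound to vessels, stood at 3.68, 0.577, 2.72 and 0.433. Vwf, the von Willebrand factor of endothelium and platelets, stood at 3.40, 3.84, 1.90 and 4.14, with the Glut2L values above the Glut2H values. Mmrn1, found in platelets and lymphatic endothelium, was at most 0.195 in any library.

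Egfl7 also hosts a microRNA, miR-126, that is known for its abundance in endothelium, and its mature 3p strand is shown because the host gene was among the 2 highest of the set.
miR-126a-3p, chr2:26591402-26591423, plus strand: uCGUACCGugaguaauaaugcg
The capitals mark the seed, bases 2 to 8, and the sequence is from RefSeq (GRCm38.p6). The table lists the gene, there named Mir126, at 0 in all 4 libraries with a status of LOWDATA, so these files give no level for it.

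The last members act at the membrane and inside the cell. Plvap, which forms the diaphragms of fenestrae (ENSMUSG00000034845, chromosome 8, 71497765 to 71511752), stood at 60.3, 5.32, 26.5 and 0.795 FPKM. Cav1, the main protein of caveolae, which stromal cells share, stood at 47.3, 3.15, 45.4 and 10.4. Cav2, its partner, stood at 13.5, 2.40, 11.2 and 1.69. Between the Glut2H libraries Plvap was lower after STZ, while the caveolins were nearly level. Nos3, the endothelial nitric oxide synthase, was below 1 FPKM in every library, at 0.680, 0.292, 0.0457 and 0.387. Gpihbp1, which carries lipoprotein lipase across capillaries, was listed at 0 in all 4 libraries. Ecscr, a surface protein of endothelial cells, stood at 14.4, 0.476, 9.94 and 0, and Rasip1, a Ras-interacting protein needed for vessel lumens, at 4.35, 1.37, 1.49 and 0.986.

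The first comparison sets the STZ library against the control library among those labelled Glut2H, where the endothelial genes were high enough to be read. Most stood somewhat lower after STZ, but few by as much as 2-fold, and some stood higher. Of 32 measured genes, 24 were lower in value and 8 higher, beside 54.6% lower among all 15558 measured genes. At least 2-fold lower were 5 of the 32, where 13.8% of all measured genes were, and 0 of the 32 were at least 2-fold higher, where 9.62% were. The count of lower genes was therefore near the background. The median of the 32 genes was -0.29 on the log2 scale, beside -0.07 over all measured genes. Sox17, Mmrn1, Gpihbp1 and Nos3 stayed below 1 FPKM in both libraries and were not counted.

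**Figure D2:**
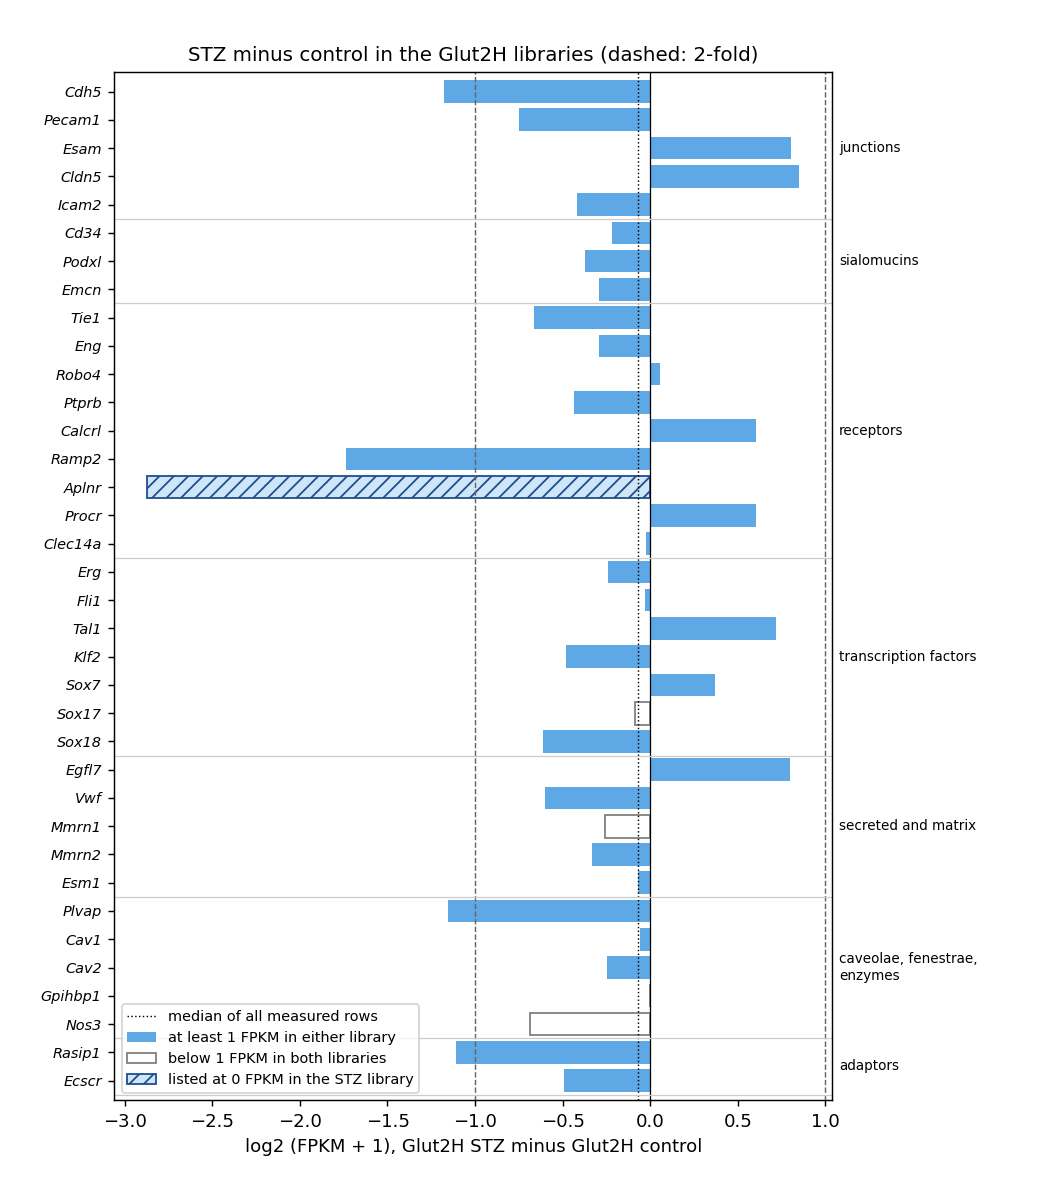
Difference of log2(FPKM + 1), Glut2H STZ minus Glut2H control, for each endothelial gene, grouped by role; dashed lines mark 2-fold, the dotted line the median of all measured genes (-0.07), open bars the 4 genes below 1 FPKM, and the hatched bar Aplnr, listed at 0 after STZ. Bars to the left of the lower dashed line are Cdh5, Ramp2, Aplnr, Plvap and Rasip1, and no bar passes the upper one.

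The 5 genes at least 2-fold lower included 2 of the receptor group, Ramp2 and Aplnr. Cdh5 had a log2 value of -1.17 and Plvap of -1.16. Ramp2 had a value of -1.74 and Rasip1 of -1.11. Aplnr, listed at 0 after STZ, is the other one, and no fold is given for it. Cdh5 and Plvap belong to the junction and the fenestra, and both were well above 5 FPKM in both Glut2H libraries. Ramp2 and Rasip1 stood at 2.65 and 1.49 FPKM after STZ. With a pseudocount of 5, which damps the values of low genes, Cdh5 (-0.94) and Rasip1 (-0.53) no longer reached 2-fold.

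The genes that stood higher after STZ were Cldn5 (0.85), Esam (0.80), Egfl7 (0.80), Tal1 (0.72), Procr (0.60), Calcrl (0.60), Sox7 (0.37) and Robo4 (0.06), as log2 values. Egfl7 and Procr are the 2 most abundant members, so the summed level stayed at 614 against 620 FPKM although the median member was lower. Of these 8 genes, Robo4 changed sign with FPKM rescaled to an equal sum (-0.14), and the other 7 kept their sign under every pseudocount, filter and scaling run. Among the genes that stood lower, Clec14a, Fli1, Esm1 and Cav1, with log2 values between -0.07 and -0.02, came to lie above 0 (0.00 to 0.05) once values were centred on the median gene.

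Within some groups the genes differed in direction and within others they did not. Within junctions, Cdh5 (-1.17) and Pecam1 (-0.75) were lower while Esam and Cldn5 were higher. Within the adrenomedullin receptor, Ramp2 was lower (-1.74) and Calcrl higher (0.60). The 3 sialomucins were all lower by little, with Cd34 at -0.22, Emcn at -0.29 and Podxl at -0.37. Erg (-0.24) and Fli1 (-0.03) were close to 0.

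The authors' deposited intervals, whose level is not stated, give the only error on single values. They overlapped between the Glut2H libraries for all 36 genes, and for all but 1.04% of all measured genes. For Cdh5 the interval ran from 7.90 to 41.0 FPKM in the Glut2H control and from 2.44 to 19.4 in the Glut2H STZ library. For Plvap it ran from 19.8 to 101 and from 7.19 to 46.0, and for Egfl7 from 14.5 to 119 and from 9.75 to 247.

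Other endothelial genes, a list of 47 genes found in the table that are not among the 36, was read in the same way. After STZ in the Glut2H libraries, 7 of the 41 measured stood at least 2-fold lower and 2 higher, with a median of -0.38. Among all measured genes 13.8% were lower and 9.62% higher, with a median of -0.07. The count of lower genes was therefore near the background here too. Between the gates, 26 of 40 measured were at least 2-fold lower in the Glut2L library in control mice and 26 of 38 in STZ mice, with 3 higher in each pair. Of all measured genes, 18.5% and 17.8% were lower and 19.7% and 22.9% higher. Measured genes below 1 FPKM in the Glut2L library had to stand lower in it. Some of the list are not endothelial alone: Tspan7, which islet endocrine cells also express, stood at 24.0, 97.3, 21.1 and 94.3 FPKM. The genes lower after STZ in the Glut2H libraries included Eltd1, an adhesion receptor of vessels, at 31.7, 4.39, 10.5 and 0.380 FPKM, and Flt1, a VEGF receptor, at 23.9, 1.46, 7.86 and 0.336. Kdr, the main VEGF receptor, stood at 30.2, 2.25, 22.2 and 0.687. Shank3, a scaffold protein also known from synapses, stood at 11.2, 0.343, 0.745 and 4.93. The higher ones were Notch4, a Notch receptor of endothelium, at 6.43, 9.59, 19.8 and 0.133, and Darc, a chemokine receptor of venules, at 1.66 in the Glut2H STZ library and listed at 0 in the others. Ets1, an ETS factor, stood at 20.3, 2.54, 30.4 and 1.006. Among 7 lymphatic genes, Lyve1, a hyaluronan receptor also found on macrophages, was lower after STZ, at 11.8, 0.0301, 3.92 and 0.740, and 1, Reln, was higher. Pdpn, which encodes podoplanin, stood at 11.1, 0.857, 7.10 and 0.389, and Prox1, a lymphatic factor that islet cells also express, at 5.08, 8.51, 3.14 and 8.57.

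Markers of the other cell types that the sorts could hold were read in the same Glut2H libraries. The leukocyte list summed to 3375 FPKM in the Glut2H control and 3613 in the Glut2H STZ library, with 1 of 18 measured genes, Cd79a, at least 2-fold lower, 0 higher and a median of -0.04. Csf1r, the macrophage growth factor receptor, stood at 35.9, 0.875, 51.5 and 1.93 FPKM and Itgam, a myeloid integrin, at 48.8, 1.29, 33.9 and 1.72. The stromal and pericyte list summed to 844 and 746 FPKM, with 1 of 14 lower (Dcn), 2 higher (Tagln and Acta2) and a median of 0.07. Dcn, a fibroblast proteoglycan, stood at 92.8, 1.16, 45.1 and 2.24, and Acta2, the actin of smooth muscle, at 6.40, 0.887, 22.4 and 0.707. Both lists thus had medians near 0, where 13.8% of all measured genes were at least 2-fold lower and 9.62% higher. Of the 14 stromal genes 6 stood lower in value after STZ and 8 higher. Fibroblast genes lay on both sides, such as Lum at -0.50 and Col1a2 at 0.20 on the log2 scale. Des, a muscle gene, stood at -0.43, against the direction of Tagln and Acta2. The platelet list summed to 61.5 and 125 FPKM, led by Pf4 at 49.7 and 109.9. Of its 6 measured genes 2, Pf4 and Ppbp, were higher and 1, Itga2b, lower, with a median of 0.45, while Treml1 and Gp6 were listed at 0 in all 4 libraries and Gp9 in both Glut2H libraries. Hemoglobin genes had a level above 0 in 1 library, the Glut2H control, where the red blood cell list summed to 83.2 FPKM against 0 in the Glut2H STZ library, and 4 of 4 measured genes were lower. Of the acinar genes 0 of 7 (median 0.03) and of the beta cell genes 0 of 12 (median 0.21) reached 2-fold. The part of blood left in vessels in the endothelial values was not tested.

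**Figure D3:**
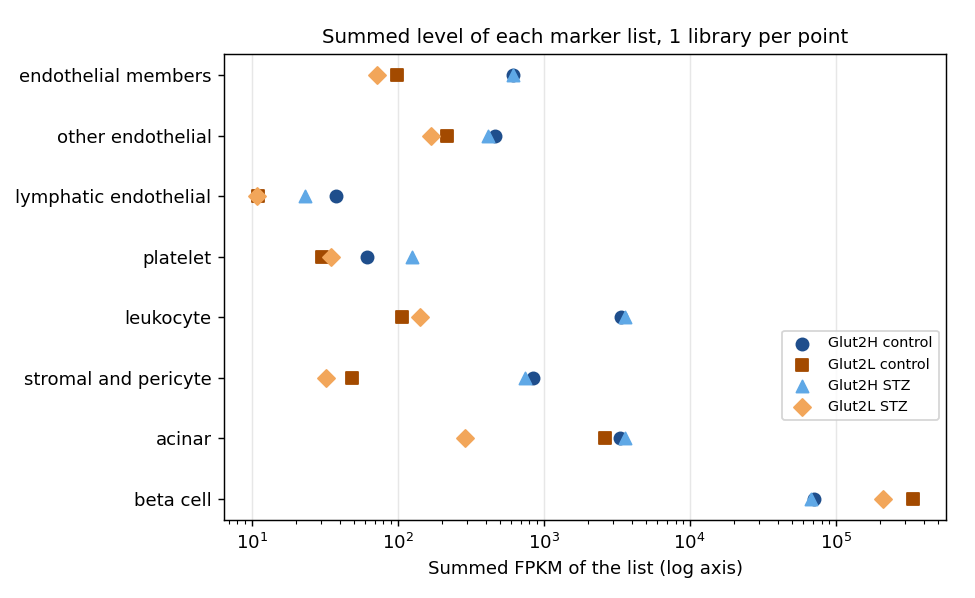
Summed FPKM of each marker list on a log axis, with 1 point per library. The endothelial, leukocyte and stromal sums are higher in both Glut2H libraries, the beta cell sum is higher in both Glut2L libraries, and the 2 Glut2H points of the endothelial list (620 and 614) nearly coincide.

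Members that blood or stromal cells also express, 17 of the 36 from textbook knowledge, were set beside the other 19. The 17 were Pecam1, Esam, Icam2, Cd34, Podxl, Eng, Calcrl, Ramp2, Procr, Erg, Fli1, Tal1, Klf2, Vwf, Mmrn1, Cav1 and Cav2. In the Glut2H libraries 1 of 16 measured shared genes was at least 2-fold lower after STZ (median -0.24), against 4 of 16 of the others (median -0.38), where 13.8% of all measured genes were. The 17 summed to 317 and 337 FPKM in the Glut2H control and STZ libraries and the other 19 to 303 and 276. This division was chosen after the values were seen.

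In the libraries labelled Glut2L the second comparison, STZ against control, had little to read. Only 17 of the 36 genes reached 1 FPKM in either library, and 10 were listed at 0 after STZ against 4 in the control. The share of all genes listed at 0 was not computed, so no background stands beside these counts at 0. Of the 17, 12 were lower in value after STZ, beside 49.7% of all measured genes. At least 2-fold lower were 4, Emcn (-1.26), Egfl7 (-1.63), Plvap (-1.82) and Sox18, which was listed at 0, where 11.1% of all measured genes were. Cav1 was at least 2-fold higher (1.46), where 10.2% of all measured genes were. The median was -0.34 beside 0.00 over all measured genes. Sox18 was the 1 gene of the 36 whose deposited intervals did not overlap, where those of 0.731% of all measured genes did not. In the STZ library its interval ran from 0 to 0, and in the control library from 0.338 to 5.16. Any lower bound above 0 in the control library would thus have set them apart. Acinar genes, markers of the exocrine pancreas, were lower in the same comparison, with 7 of 7 at least 2-fold lower, a median of -3.60 and a sum of 2641 FPKM in the control and 291 in the STZ library. The leukocyte list had 2 of 16 lower, 1 higher and a median of 0.32, and the stromal list 1 of 9 lower, 1 higher and a median of -0.25. Their part in the endothelial values was not tested. Egfl7 stood lower after STZ in the Glut2L libraries and higher in the Glut2H libraries, and that difference was not tested.

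The remaining comparisons set the gates against each other, in control and in STZ mice. The endothelial genes were lower in the library labelled Glut2L in both. Among control libraries, 24 of the 30 measured members stood at least 2-fold lower in it, beside 18.5% of all measured genes, and 1, Icam2 (1.55), was higher, beside 19.7%. In STZ mice 25 of 31 were at least 2-fold lower, beside 17.8%, and 2, Icam2 (1.41) and Ramp2 (1.07), were higher, beside 22.9%. Lower in value were 27 of the 30 and 27 of the 31, where 44.1% and 41.3% of all measured genes were. The medians were -2.22 and -1.99, beside 0.15 and 0.23 over all measured genes.

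A gene measured through the Glut2H library alone had to stand lower in the Glut2L library, and this held for 14 of the 30 genes in control mice and 17 of the 31 in STZ mice. Among the genes that reached 1 FPKM in both libraries, 12 of 16 were at least 2-fold lower in control mice and 9 of 14 in STZ mice, with medians of -2.14 and -1.95. The share of all genes under this stricter filter was not computed, so no background stands beside these counts. Over all 36 genes, unmeasured ones included, the medians were -1.65 and -1.67. Over the 35 and 34 genes above 0 FPKM in either library, they were -1.74 and -1.82. All genes of the table so filtered had medians of 0.12 and 0.20.

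With the pseudocount of 1, differences were deepest for Cdh5, Cav1, Ecscr and Eng in control mice, at -3.79, -3.54, -3.38 and -3.35. In STZ mice they were deepest for Egfl7, Plvap, Eng and Emcn, at -4.63, -3.94, -3.89 and -3.85. Low genes are understated on this scale, so these ranks hold for it alone. Fli1, for example, read 4.44 FPKM in the control library labelled Glut2H and 0.0883 in its Glut2L counterpart, yet had a value of -2.32. Of the genes named as deepest, Cdh5 and Ecscr in control mice and Plvap in STZ mice stayed below 1 FPKM in the Glut2L library. Egfl7 moved from -2.20 to -4.63 and Cav1 from -3.54 to -2.02, so the order of the genes was not the same in the 2 pairs. Ramp2 had opposite signs, at -1.18 and 1.07. The deposited intervals of the gates did not overlap for 11 genes in control mice and 13 in STZ mice, beside 4.71% and 5.13% of all measured genes. Of the 13, Tie1, Clec14a, Sox18 and Ecscr had an interval of 0 to 0 in the Glut2L STZ library. For these any lower bound above 0 in the Glut2H STZ library was enough. Cdh5, Emcn, Robo4, Ptprb, Calcrl, Procr, Fli1, Esm1, Plvap and Ecscr were in both sets.

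**Figure D4:**
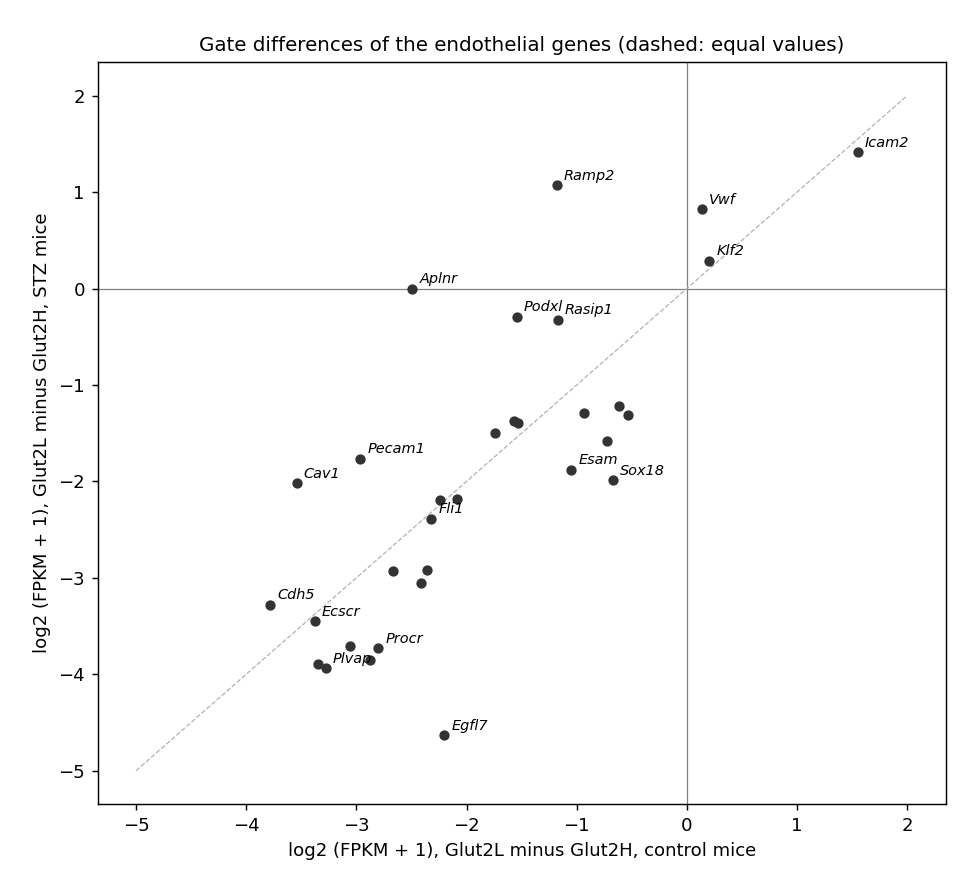
Difference of log2(FPKM + 1), Glut2L minus Glut2H, of the endothelial genes in control mice (horizontal) and STZ mice (vertical), with 1 point per gene that reached 1 FPKM in either pair; the dashed line marks equal values. Most points lie at the lower left, below 0 on both axes, Egfl7 lies below the line (-2.20 and -4.63) and Icam2 (1.55 and 1.41) lies in the upper right.

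Among other cell types that an insulin-positive sort is not meant to hold, leukocyte and stromal genes stood lower with the endothelial genes in both gate pairs, and acinar genes in 1 of the pairs. In control and STZ mice the leukocyte list had medians of -4.37 and -4.16, with 18 and 17 of 18 genes at least 2-fold lower in the Glut2L library, and the stromal list of -3.00 and -3.47, with 14 and 13 of 14 lower. Among all measured genes 18.5% and 17.8% were lower and 19.7% and 22.9% higher. Some genes of both lists were measured through the Glut2H library alone and had to stand lower. Examples are Csf1r, at 0.875 FPKM in the Glut2L control library, and Acta2, at 0.887 and 0.707 in the Glut2L control and STZ libraries. Of the acinar genes, 0 of 7 reached 2-fold in control mice (median -0.43), and 7 of 7 were lower in STZ mice (median -4.24). The beta cell list had medians of 1.92 and 1.47, with 12 and 10 of 12 genes higher. Their part in the endothelial values was not tested. Scaling also bears on the gates, because the short predicted gene Gm20594 took 61.0% and 68.5% of the summed FPKM in the Glut2H control and STZ libraries and 3.86% and 4.15% in the Glut2L libraries. With FPKM rescaled to an equal sum, the median of all genes moved to 0.87 in control and 1.18 in STZ mice, and 12.1% of all genes were lower and 44.3% higher in control mice, and 9.79% and 58.4% in STZ mice. The endothelial genes still stood at least 2-fold lower for 21 and 19 genes and higher for 1 and 4. When values were centred on the median gene, 21.3% of all genes were lower and 16.1% higher in STZ mice.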

How the data were processed

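Total RNA of 4 sorted cell populations was sequenced from stranded libraries depleted of ribosomal RNA, per the labels' protocols. Per the submitters' processing notes, the authors used TopHat2, SAMtools and Cuffdiff on GRCm38 (mm10). Versions, the annotation release and the use of strand are not stated in the sources used here. Per the file headers, the authors deposited FPKM with 2 interval bounds and a status, and all 36 genes had the status OK in all 4 libraries. Of 156680 values, 0 differed between the whole-series table and the tables of the samples. Depth is unknown: among 904 genes below 0.5 FPKM in both Glut2H libraries, ratios did not gather at whole steps (at most 25 in a bin of 0.05 on the log2 scale).

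With Python 3.11.15 and pandas 2.3.3, 4 comparisons were computed on log2(FPKM + 1) over genes of status OK that reached 1 FPKM in either library, and called at 2-fold. No test was run with 1 library per group. The procedure was tested on simulated data. Positions are from GENCODE M21 (GRCm38), matched by Ensembl ID. Motifs were exact matches. All 36 genes were accounted for. Of the other lists the text names the 2 highest and 2 lowest genes for STZ in the Glut2H libraries with at least 5 FPKM, or a few further genes chosen after their values were seen. An acinar list was also run. The genes and lists were chosen with earlier results of these data known. Alternatives changed the pseudocount, filter, scaling, call and table.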

Additional observations from a re-analysis of the deposited data

How the results depend on the processing

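No paired analysis was possible because each group holds 1 library. Counts below are of endothelial genes at least 2-fold lower or higher. For STZ against control in the Glut2H libraries, the 5 lower genes became 3 with a pseudocount of 5, 9 at a call of 1.5-fold, 1 at 4-fold and 0 with the condition that deposited intervals do not overlap, and the 0 higher genes became 2 with a pseudocount of 0.1 and 6 at 1.5-fold. In the Glut2L libraries, the 4 lower genes became 1 with a pseudocount of 5, 2 with a filter of 5 FPKM, 0 at 4-fold and 1 with intervals apart, and the 1 higher gene became 2 with a pseudocount of 0.1, with equal sums or at 1.5-fold, and 0 with a pseudocount of 5, at 4-fold, with intervals apart or without the genes that blood or stromal cells share, where the median was -1.45. In the Glut2H libraries the share of all measured genes that was lower was 4.31% with a pseudocount of 5, 23.4% at 1.5-fold, 3.93% at 4-fold and 0.656% with intervals apart, and 12.6% and 17.6% were higher with a pseudocount of 0.1 and at 1.5-fold. In the Glut2L libraries 3.83%, 9.13%, 3.43% and 0.41% were lower with a pseudocount of 5, the filter, 4-fold and intervals apart, and 13.7%, 12.5% and 18.4% higher with a pseudocount of 0.1, equal sums and 1.5-fold. For the gates in control mice, the median was -2.95 and -1.11 with pseudocounts of 0.1 and 5. The 24 lower genes of 30 became 16 with a pseudocount of 5, 17 at 4-fold and 11 with intervals apart. They became 18 of 21 with a filter of 5 FPKM and 12 of 15 without the shared genes. The 1 higher gene became 0 with a pseudocount of 5, at 4-fold, with intervals apart and without the shared genes. For the gates in STZ mice, the median was -3.95 and -1.02 with pseudocounts of 0.1 and 5, -2.93 with a filter of 5 FPKM and -1.25 with equal sums. There the 25 lower genes of 31 became 16 with a pseudocount of 5, 15 at 4-fold and 13 with intervals apart. They became 16 of 19 with the filter of 5 FPKM and 14 of 15 without the shared genes. The 2 higher genes became 0 with a pseudocount of 5, at 4-fold, with intervals apart and without the shared genes. They became 1 with values centred on the median gene and 4 with equal sums. Of all measured genes in control mice, 9.01%, 18%, 8% and 4.19% were lower with a pseudocount of 5, the filter, 4-fold and intervals apart. In STZ mice these shares were 9.11%, 17.4%, 7.83% and 4.15%. Fewer genes enter under the filter and without the shared genes; elsewhere the cause was not tested. No median changed sign and no gene at least 2-fold apart changed sign under the alternatives run. The division by shared expression was chosen after seeing the data. For genes below 1 FPKM the deposited intervals, whose level is not stated, give the only error, and the depth behind them is unknown.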
